A study of Mus musculus with 2 samples.

Results

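The endocannabinoid receptor gene Cnr1 and 7 genes for enzymes that make or break down endocannabinoids were examined in dorsal striatum RNA of mice that had self-administered cocaine. The 8 genes, Cnr1, Dagla, Daglb, Mgll, Faah, Napepld, Abhd6 and Abhd12, were chosen by name from 32531 gene symbols counted in both libraries, and all 8 were among the 12213 genes called measured here, with 50 or more counts in the 2 libraries together. One library came from mice whose cocaine intake escalated during long-access intravenous self-administration, and it was set against a library from mice whose intake did not escalate. Both groups took cocaine and both carried the Drd1-TRAP transgene (line CP73), a bacterial artificial chromosome in which the regulatory sequence of the dopamine receptor gene Drd1 drives a ribosomal protein Rpl10a tagged with EGFP. The line, of FVB/N-Swiss Webster origin, had been crossed to C57BL/6 for a minimum of 9 generations. The RNA was input, extracted from whole dissected tissue rather than from the tagged ribosomes, and no group without cocaine was analysed here. The animals' age and sex, and how many were used for a library, were not given in the sources used here.

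Endocannabinoids are lipid messengers that a neuron makes on demand from its membrane and releases backwards across the synapse. The receptor CB1, encoded by Cnr1, sits on axon terminals, couples to inhibitory G proteins and lowers transmitter release; in striatum it is made by projection neurons and some interneurons and is also carried in by the axons of cortical neurons. One messenger, 2-arachidonoylglycerol (2-AG), is made from diacylglycerol by the lipases of Dagla and Daglb and is hydrolysed by the enzymes of Mgll, Abhd6 and Abhd12. The other, anandamide, belongs to the N-acylethanolamines, which the phospholipase of Napepld releases from membrane phospholipids and the amide hydrolase of Faah degrades.

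There was 1 library per group, so the differences below lack a replicate check and carry no p-value. Levels are CPM, read counts per 1000000 reads of a library size scaled by TMM, a factor that centres the ratios of most genes near 1. The 9548358 assigned reads of the escalating library and the 9376097 of the nonescalating library had TMM factors of 1.13 (escalating) and 0.882 (nonescalating). The symbol AK140265, named after its value was seen, took 9.66% of the assigned reads in the escalating library, against 24.1% in the nonescalating library, and enters the total-read scaling. Each interval is an exact 95% counting interval, which covers counting error only and compares these libraries, not the conditions. In tissue RNA, fewer cells of a type and less RNA per cell cannot be told apart. The call rule asked for a 1.5-fold ratio or more with an interval that excluded 1. Of all measured genes, 17.1% were called lower and 9.36% higher in the escalating library. The median log2 ratio of all measured genes was 0.02 with TMM. It shifted by 0.36 with scaling to the total of assigned reads, by 0.11 when the 10 genes with the most reads were left out of the total, and by -0.31 when the median of a list of pan-neuronal genes was set to 0.

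Of the 8 genes, 7 had a lower and 1, Napepld, a higher level in the escalating library, under TMM and each other scaling tried. Not each interval excluded equal levels. The interval of Faah included them under each scaling but the pan-neuronal setting, and its log2 ratio with total reads was -0.03 (-0.53 to 0.47). So did that of Daglb with total reads (-0.23, -0.60 to 0.12) and that of Napepld with the pan-neuronal setting (0.12, -0.30 to 0.55). With TMM 4 were called lower (Daglb, Mgll, Abhd6 and Abhd12) and 0 higher, beside the 17.1% and 9.36% of all measured genes. The calls depended on the scaling. With total assigned reads 0 were called lower, against 9.4% of all genes, and 1, Napepld, was called higher, against 31.5%. With the pan-neuronal median set to 0, 7 were called lower, against 30.3%, and 0 higher, against 2.48%. The median log2 ratio of the 8 genes was -0.56 with TMM, -0.20 with total reads and -0.88 with the pan-neuronal setting. The position of any member relative to another cannot depend on the scaling, since both genes of a pair are read in the same library.

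**Figure D1:**
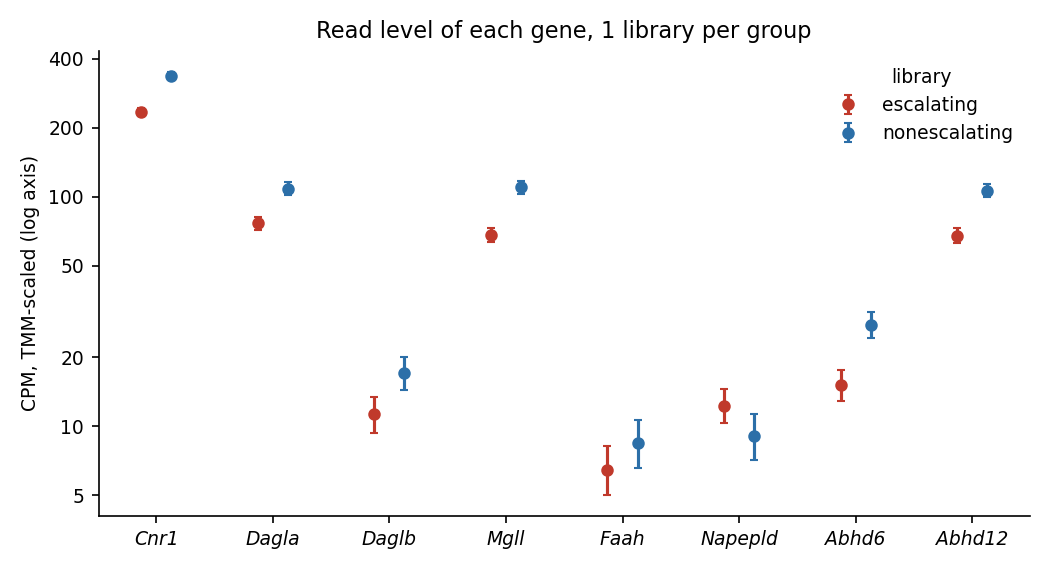
CPM of each of the 8 genes (TMM-scaled, log axis) in the escalating library (red, left) and the nonescalating library (blue, right); bars are exact 95% counting intervals of 1 library. Cnr1 has the most reads, at 234 CPM (escalating) and 338 CPM (nonescalating), and Napepld is the 1 gene with the higher value in the escalating library, at 12.3 CPM against 9.06 CPM in the nonescalating library.

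The promoters of the receptor, of the main 2-AG hydrolase and of the gene that went the other way are shown so that the members can be set side by side as sequence. They are RefSeq windows of 250 bases before to 50 bases after the annotated start (build GRCm38.p6), printed 5′ to 3′ with E-boxes (CACGTG) and GC boxes (GGGCGG on either strand) in capitals.
Cnr1, chr4:33924394-33924693, plus strand: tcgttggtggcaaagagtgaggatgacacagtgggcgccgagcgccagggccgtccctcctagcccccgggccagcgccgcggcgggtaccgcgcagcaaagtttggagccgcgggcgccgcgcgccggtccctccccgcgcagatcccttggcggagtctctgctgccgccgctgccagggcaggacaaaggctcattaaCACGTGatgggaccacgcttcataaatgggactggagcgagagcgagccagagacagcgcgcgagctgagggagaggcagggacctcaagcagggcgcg
Mgll, chr6:88724162-88724461, plus strand: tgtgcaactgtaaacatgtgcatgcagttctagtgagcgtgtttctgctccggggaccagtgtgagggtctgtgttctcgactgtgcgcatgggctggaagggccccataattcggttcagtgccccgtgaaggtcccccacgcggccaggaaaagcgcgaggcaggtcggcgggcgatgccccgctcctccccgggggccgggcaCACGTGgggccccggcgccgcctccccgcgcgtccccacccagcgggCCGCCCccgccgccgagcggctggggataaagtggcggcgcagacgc
Napepld, chr5:21701573-21701872, minus strand: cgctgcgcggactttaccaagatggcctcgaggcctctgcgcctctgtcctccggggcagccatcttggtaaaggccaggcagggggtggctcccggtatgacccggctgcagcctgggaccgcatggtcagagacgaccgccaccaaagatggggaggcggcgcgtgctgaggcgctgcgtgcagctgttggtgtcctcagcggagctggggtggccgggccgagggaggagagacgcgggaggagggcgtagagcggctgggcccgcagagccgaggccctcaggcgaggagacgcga
The Cnr1 window, the second of 3 annotated starts, held 1 E-box and no GC box, the Mgll window, the first of 2 starts, held 1 of each, and the Napepld window held neither. For Cnr1 and Mgll the window printed is the one with an E-box, chosen with its letters seen. The other Cnr1 windows held 5 GC boxes at the first start and 0 at the third, with no E-box in either, and the second Mgll window held 1 GC box and no E-box. Daglb, Faah and Abhd6, with negative log2 ratios like Cnr1 and Mgll, had no E-box in any window. The Daglb window held no GC box either, as for Napepld, while the Faah window held 2 and each Abhd6 window 1. E-boxes were in 7.15% and GC boxes in 35.7% of 32851 such windows of all genes. The cAMP response element TGACGTCA, searched on both strands and found in 1.79% of all windows, was in none of the 10 windows that the table held for 6 of the 8 genes. These matches describe letters and not binding, and no match says only that these letters were not in the window. The Napepld window was rich in G and C, at 70.3%, with 28 CpG pairs, beside 69% and 33 for Cnr1 and 70.0% and 32 for Mgll. This Napepld window lies wholly upstream of the gene span given below (21662901 to 21701396), which is from GENCODE. RefSeq and GENCODE thus place the start of Napepld differently.

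Cnr1 (chromosome 4, 33924593 to 33948831 on GRCm38) was the most abundant of the 8 genes. It had 2533 counts, or 234 CPM (225 to 243), in the escalating library, against 2795 counts, or 338 CPM (325 to 351), in the nonescalating library. The level was 1.44-fold lower in the escalating library (interval 1.37 to 1.52), just under the threshold, so Cnr1 was not called. The log2 ratio was -0.53 (-0.61 to -0.45), -0.17 with total reads and -0.84, a call, with the pan-neuronal setting. Of all measured genes, 19.6% had a lower ratio. The 3 measured genes closest to Cnr1 in log2 CPM over the 2 libraries were Atrn, Pabpc1 and Arrb1, at distances of 0.02, 0.06 and 0.07; with 2 libraries this measures a like level and a like ratio only.

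The gene for the main 2-AG synthase of the adult brain, Dagla (chromosome 19, 10245265 to 10304877), had 829 counts, or 76.6 CPM (71.5 to 82.0), in the escalating library, against 899 counts, or 108.7 CPM (101.7 to 116.0), in the nonescalating library. Its level was 1.42-fold lower in the escalating library (1.29 to 1.56) and not a call. Its log2 ratio of -0.50 lay close to the -0.53 of Cnr1, and the Dagla to Cnr1 ratio was 1.02 times as high in the escalating as in the nonescalating library (0.911 to 1.14). Daglb (chromosome 5, 143464584 to 143505942), a relative well known from microglia, had 122 counts, or 11.3 CPM (9.36 to 13.5), in the escalating library. In the nonescalating library Daglb had 141 counts, or 17.0 CPM (14.3 to 20.1). It was called 1.51-fold lower in the escalating library (1.18 to 1.94), with a log2 ratio of -0.59 that stood just past the threshold. The call was lost with total reads (-0.23), with the total without the 10 top genes (-0.49) and with a pseudocount of 5 (-0.57).

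The count of Daglb has a limit of its own. Exons of Rac1, on the opposite strand, cover 2309 bases, or 24.1%, of the annotated exons of Daglb, and whether reads were counted by strand is not given in the sources used here. Reads that fell in more than 1 gene made up 8.06% of the listed reads in the escalating library, against 18.9% in the nonescalating library. Their part in the Daglb ratio was not tested. The share of Dagla among reads of both synthases was 87.2% (exact 95% binomial interval 84.9 to 89.2) in the escalating library. It was 86.4% in the nonescalating library (84.2 to 88.5). The Dagla to Daglb ratio was 1.07 times as high in the escalating as in the nonescalating library (0.815 to 1.40), so no difference was detectable at this depth.

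Mgll (chromosome 6, 88724412 to 88828360), which encodes monoacylglycerol lipase, the enzyme behind most 2-AG hydrolysis in brain, had 739 counts, or 68.3 CPM (63.5 to 73.4), in the escalating library, against 911 counts, or 110.1 CPM (103.1 to 117.5), in the nonescalating library. Mgll was called 1.61-fold lower in the escalating library (1.46 to 1.78; log2 ratio -0.69). Abhd12 (chromosome 2, 150832493 to 150904741), a membrane lipase that also cleaves lysophosphatidylserine and whose loss in humans causes a neurodegenerative disease, had 733 counts, or 67.7 CPM (62.9 to 72.8), in the escalating library, against 881 counts, or 106.5 CPM (99.6 to 113.8), in the nonescalating library. It was called 1.57-fold lower (1.42 to 1.74; log2 ratio -0.65). The levels of both genes were separated between the libraries by more than their counting intervals.

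Abhd6 (chromosome 14, 8002902 to 8056763), a 2-AG hydrolase of the postsynaptic side, had 163 counts, or 15.1 CPM (12.8 to 17.6), in the escalating library, against 229 counts, or 27.7 CPM (24.2 to 31.5), in the nonescalating library. Its ratio was the lowest of the 8 genes, an order that the scaling does not set. With TMM it was called 1.84-fold lower in the escalating library (1.5 to 2.26, log2 ratio -0.88), with 10.9% of all measured genes lower still. With the total that leaves out the 10 top genes, where 14.1% of all genes were called lower, Abhd6 was the 1 member still called (-0.77), while Mgll (-0.58) and Abhd12 (-0.54) fell under the threshold. With total reads the ratios of Mgll, Abhd12 and Abhd6 were -0.33, -0.29 and -0.52.

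The shares of the 3 hydrolases among their summed reads had overlapping intervals in both libraries. Per length of exon, Mgll made up 30.7% of their reads in the escalating library, against 30.5% in the nonescalating library. Abhd12 made up 54.8% in the escalating library and Abhd6 14.5%, against 53.0% and 16.5% in the nonescalating library. As plain counts, Mgll was 45.2% in the escalating library (42.8 to 47.6), against 45.1% in the nonescalating library (42.9 to 47.3), with intervals that overlap. Abhd6 was 9.97% (8.56 to 11.5) in the escalating and 11.3% (9.98 to 12.8) in the nonescalating library. Reads of both synthases were 36.8% of the reads of synthases and hydrolases together in the escalating library (34.9 to 38.7). In the nonescalating library they were 34.0% (32.3 to 35.7), again with overlapping intervals. Overlap of separate intervals does not show equal shares, and an interval for the difference between these shares was not computed.

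Of the N-acylethanolamine pair, Faah (chromosome 4, 115967145 to 116017926) had the fewest reads of the members, with 70 counts in each library. At 6.47 CPM in the escalating library (5.04 to 8.17), against 8.46 CPM in the nonescalating library (6.60 to 10.7), the counting intervals overlapped. The log2 ratio was -0.38 (-0.89 to 0.11), and a difference was not detectable at this depth. Napepld (chromosome 5, 21662901 to 21701396) had 133 counts, or 12.3 CPM (10.3 to 14.6), in the escalating library, against 75 counts, or 9.06 CPM (7.13 to 11.4), in the nonescalating library. It stood 1.36-fold higher in the escalating library (1.01 to 1.82; log2 ratio 0.44) and was not called, with 82.7% of all measured genes at a lower ratio. With total reads its log2 ratio was 0.80 (0.38 to 1.23), a call, and with the pan-neuronal setting 0.12 (-0.30 to 0.55).

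**Figure D2:**
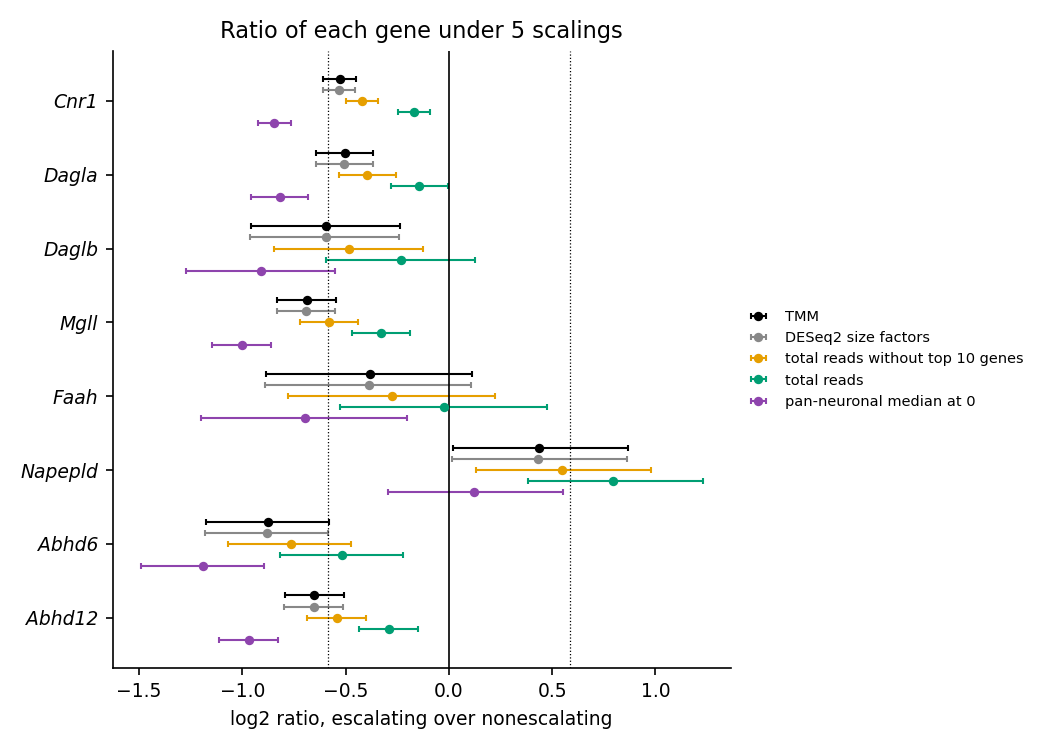
Log2 ratio of escalating over nonescalating for each gene (rows) under 5 scalings (colours), with exact 95% counting intervals; the solid line marks equal levels and the dotted lines 1.5-fold. Each scaling moves all 8 genes together by construction, so the gaps between genes stay nearly the same and are no check of them. With TMM Napepld lies at 0.44 and Abhd6 at -0.88.

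The ratio of one member to another within a library needs no scaling. All 28 pairs were compared, with 95% intervals for each pair and wider intervals that hold jointly over the 28. The 95% interval excluded 1 for 9 pairs and the joint interval for 6, and each of those 6 pairs had Napepld as a partner. Those 6 pairs share the same Napepld counts, 133 (escalating) and 75 (nonescalating), and are not separate observations. The share of pairs of all measured genes that such intervals separate was not computed, so these counts lack a background. Relative to Mgll, Napepld was 2.19 times as abundant in the escalating as in the nonescalating library (1.61 to 2.99; joint interval 1.35 to 3.59). Relative to Cnr1 it was 1.96 times as abundant (joint interval 1.23 to 3.16), relative to Dagla 1.92 times (1.19 to 3.16) and relative to Abhd6 2.49 times (1.42 to 4.42). Relative to Faah, its partner in the pathway, it was 1.77 times as abundant (95% interval 1.12 to 2.81), with a joint interval of 0.866 to 3.65 that did not exclude 1. Napepld was 65.5% of the reads of these 2 genes in the escalating library (58.5 to 72.0), against 51.7% in the nonescalating library (43.3 to 60.1). Among the 21 pairs without Napepld, the 95% interval excluded 1 for 2, Abhd6 against Cnr1 (0.785, 0.634 to 0.972) and Abhd6 against Dagla (0.772, 0.614 to 0.969), and the joint interval for 0. An interval that includes 1 does not show that 2 genes had the same ratio: that of Faah against Abhd12, for example, reached from 0.838 to 1.72.

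Per length of exon, the order of the members was the same in both libraries, while with the longest coding transcript Napepld and Daglb changed places. Reads per kilobase of exon, scaled to the same total in both libraries over all genes with a known length (TPM, used here for the order within a library), placed Cnr1 first at 257 TPM (247 to 267) in the escalating library, against 357 TPM (343 to 370) in the nonescalating library. Abhd12 came next, at 169.6 TPM in the escalating, against 256.6 TPM in the nonescalating library, although it had about as many reads as Mgll, because its exons are short, at 2823 bases against 5077. Mgll and Dagla followed, at 95.1 and 94.2 TPM in the escalating library, where their counting intervals overlapped, and at 147.5 and 128.6 TPM in the nonescalating library, where they did not. Abhd6 stood at 45.0 TPM in the escalating, against 79.6 TPM in the nonescalating library. Napepld stood at 22.0 TPM in the escalating library, against 15.6 TPM in the nonescalating library.

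Daglb and Faah were the lowest. Daglb had 8.33 TPM in the escalating library (6.92 to 9.95), against 12.1 TPM in the nonescalating library (10.2 to 14.3), and Faah had 5.84 TPM (4.55 to 7.37) in the escalating library, against 7.35 TPM (5.73 to 9.28) in the nonescalating library. Per length of exon, Napepld and Daglb differed by 2.64-fold in the escalating library but were within counting error of each other in the nonescalating library. With the longest coding transcript as the length, the order in the escalating library was the same, but Napepld (16.9 TPM) and Daglb (13.2 TPM) lay closer together. The 2.64-fold difference thus depended on the length used. In the nonescalating library Daglb (18.8 TPM) then stood above Napepld (11.8 TPM).

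**Figure D3:**
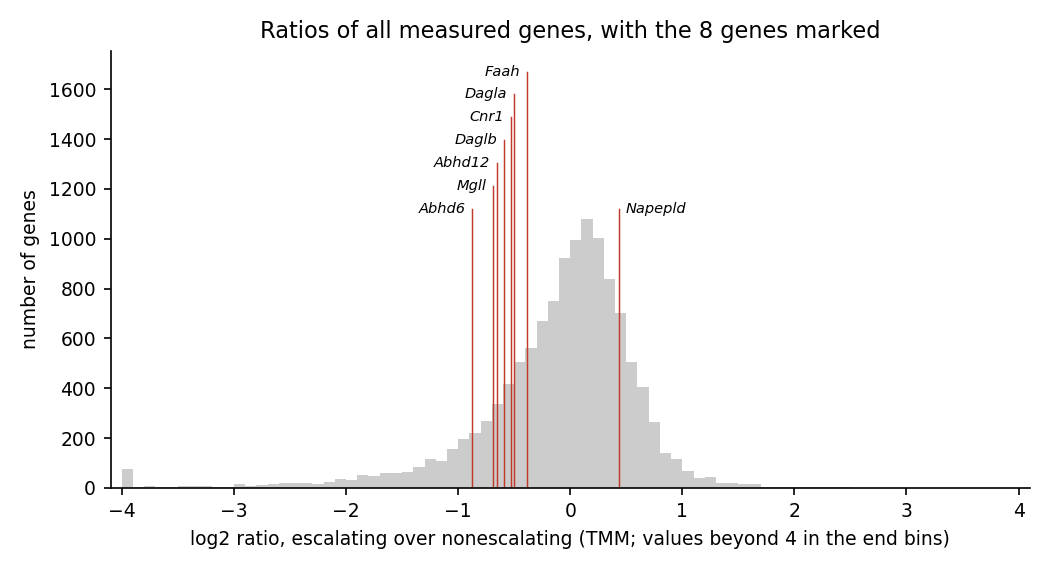
Number of measured genes by log2 ratio of escalating over nonescalating (TMM; grey bars of 0.1 width, values beyond 4 placed in the end bins), with the 8 genes marked in red. All but Napepld lie on the lower side, between -0.88 (Abhd6) and -0.38 (Faah), inside the body of the distribution, and Napepld lies at 0.44.

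Genes around the pathway were taken from 7 lists, and their counts stand beside the same shares of all genes, 17.1% lower and 9.36% higher. With total reads those shares were 9.4% lower and 31.5% higher. Of 9 other N-acylethanolamine enzyme genes with enough counts (of 12 listed), 6 were called lower and 0 higher, with a median log2 ratio of -0.93 (-0.57 with total reads, where 4 were lower and 2 higher). Abhd4, which starts a route to anandamide that does not need NAPE-PLD, had 174 counts in the escalating library, against 376 in the nonescalating library, and was called 2.83-fold lower (2.36 to 3.40). Pla2g16, a phospholipase and acyltransferase gene, had 367 counts in the escalating library, against 771 in the nonescalating library, and was called 2.75-fold lower (2.42 to 3.12), and Asah1, the acid ceramidase gene, 2.37-fold (1.99 to 2.83). Inpp5d, an inositol phosphatase gene of blood and myeloid cells, had 41 counts in the escalating library, against 252 in the nonescalating library, and was called 8.04-fold lower (5.76 to 11.5). Hrasls, an acyltransferase gene, and Pla2g4e, a phospholipase gene whose enzyme makes N-acyl phospholipids, had positive log2 ratios of 0.37 (0.13 to 0.63) and 0.51 (-0.25 to 1.31), near the 0.44 of Napepld; neither was called with TMM, both were called higher with total reads, and they are named here after their values were seen.

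The supply of diacylglycerol starts with receptors coupled to Gq and with phospholipase C. Of 13 such genes with enough counts (of 15), 4 were called lower and 0 higher, with a median of -0.26 that turned to 0.10 with total reads (4 lower and 2 higher). The 4 called were Plcb2, Plcb3, Plcd4 and the muscarinic receptor gene Chrm3, all with few reads. Plcb2 had 32 counts in the escalating library, against 79 in the nonescalating library, and was called 3.23-fold lower (2.12 to 5.03). Chrm3 had 34 counts in the escalating library, against 58 in the nonescalating library, and was called 2.23-fold lower (1.44 to 3.51). No gene of the list with more reads than these 4 was called with TMM.

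CB1 partners and G protein genes had 1 of 9 called lower and 0 higher, and a median of -0.09 that turned to 0.27 with total reads and to 0.02 without the 10 top genes. The call was Gnai2, an inhibitory G protein subunit gene expressed in many cell types, with 834 counts in the escalating library, against 1205 in the nonescalating library, or 1.89-fold lower (1.73 to 2.07); it was not called with total reads, where its log2 ratio was -0.56. Arrb1, the gene of a beta-arrestin that binds activated receptors, was 1.37-fold lower (1.30 to 1.45), Gnai3 1.45-fold (1.22 to 1.72) and the sorting protein gene Gprasp1 1.12-fold (1.07 to 1.17), none of them a call. With total reads the ratio of Gprasp1 turned to 0.20.

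Of 14 other members of the Abhd family with enough counts (of 17), 6 were called lower and 0 higher, with a median of -0.33 that turned to 0.03 with total reads, where 2 were lower and 1 higher. Abhd3 had 73 counts in the escalating library, against 338 in the nonescalating library, and was called 6.06-fold lower (4.69 to 7.91), and Abhd13 and Abhd17a were called 1.91-fold (1.55 to 2.37) and 1.90-fold lower (1.46 to 2.47). Abhd4, given above, is in this list too. Among the 4 fatty acid binding and carrier genes, Fabp3 had 137 counts in the escalating library, against 48 in the nonescalating library, and was called 2.18-fold higher (1.56 to 3.10). Fabp7, the brain lipid binding protein gene of astrocytes and radial glia, had 63 counts in the escalating library, against 212 in the nonescalating library, and was called 4.40-fold lower (3.31 to 5.93). Fabp5 (1.35-fold higher, 1.07 to 1.72) and Scp2 (1.36-fold lower, 1.11 to 1.66) were not called with TMM. With total reads Fabp5 was called higher, at a log2 ratio of 0.80. The median of these 4 was 0.00, and 0.36 with total reads, where 2 were higher and 1 lower.

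Other receptors for these lipids had few reads. Of 7 listed, the nuclear receptor gene Ppara alone had enough counts, with 34 in the escalating library, against 97 in the nonescalating library, and it was called 3.73-fold lower (2.50 to 5.69). The remaining 6 were named after their values were seen: the second cannabinoid receptor gene Cnr2 had 2 counts, Gpr18 5, Gpr119 1, Pparg 4 and Gpr55 27 in the escalating library, against 4, 6, 1, 3 and 15 in the nonescalating library. Trpv1 had no count in either library, which allows up to 0.277 CPM in the escalating, against 0.363 CPM in the nonescalating library. None of the 4 genes of oxidising enzymes (Ptgs2, Alox5, Alox12 and Alox15) had enough counts for a ratio.

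**Figure D4:**
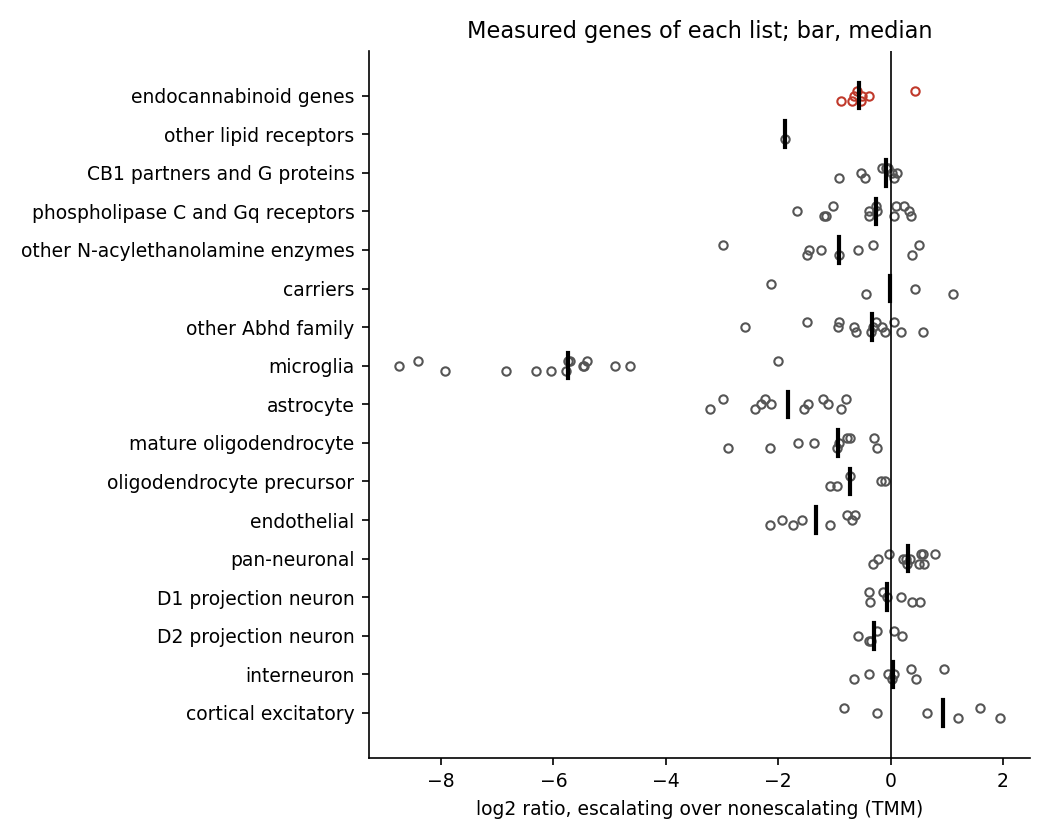
Log2 ratio of escalating over nonescalating (TMM) for each measured gene (circles) of the 8 endocannabinoid genes (red), the pathway lists with a measured gene and the cell type marker lists (grey); bars are medians. The endocannabinoid genes have a median of -0.56, between the glial lists, such as astrocytes at -1.83, and the pan-neuronal list at 0.32.

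Markers of other cell types moved between these libraries, and several of the 8 genes are known from glia as well as neurons. All 15 microglia markers were called lower in the escalating library, with a summed level of 35.6 CPM, against 1695 CPM in the nonescalating library; Trem2 and Gpr34 were at 0 counts with escalation. All 12 astrocyte markers, 8 of 10 mature oligodendrocyte markers, 3 of 5 precursor markers and all 8 endothelial markers were called lower too, and no marker in these lists was called higher. Astrocyte markers summed to 2602 CPM in the escalating library, against 16470 CPM in the nonescalating library, and oligodendrocyte markers to 1538 CPM in the escalating library, against 4035 CPM in the nonescalating library. Precursor and endothelial markers summed to 123 and 70.5 CPM in the escalating library, against 197 and 152.8 CPM in the nonescalating library. Of 12 pan-neuronal markers 2 were called higher and 0 lower (9549 CPM in the escalating, against 7818 CPM in the nonescalating library). With total reads 8 were called higher, beside 31.5% of all measured genes, and without the 10 top genes 5, beside 14.1%. With the pan-neuronal setting 0 were called higher and 1 lower, beside 2.48% and 30.3%. With total reads the markers called lower were 15 for microglia, 10 for astrocytes, 5 for oligodendrocytes, 2 for precursors and 5 for endothelium, beside 9.4% of all measured genes. The medians of the 5 glial and endothelial lists were below 0 under each scaling tried. The part of these shifts in the ratios of the 8 genes was not tested.

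Markers of striatal projection neurons all had reads, which cannot tell dorsal from other parts of the striatum. The 7 markers of Drd1 neurons summed to 684 CPM in the escalating library, against 753 CPM in the nonescalating library, and had a median log2 ratio of -0.06, and the 6 markers of Drd2 neurons summed to 1203 CPM in the escalating library, against 1672 CPM in the nonescalating library, with a median of -0.30; none was called with TMM. With total reads 2 Drd1 markers were called higher, beside 31.5% of all measured genes, and without the 10 top genes 1 was, beside 14.1%. With the pan-neuronal setting 2 Drd1 and 3 Drd2 markers were called lower, beside 30.3% of all measured genes. Medians of both lists turned positive with total reads, at 0.30 and 0.06, and without the 10 top genes that of the Drd1 list was 0.05. Of 8 measured interneuron markers 1 was called higher and 1 lower with TMM, beside 9.36% and 17.1% of all measured genes. Their median was 0.04, or -0.28 with the pan-neuronal setting. With total reads 3 were called higher and 0 lower, beside 31.5% and 9.4%, and with the pan-neuronal setting 1 and 2, beside 2.48% and 30.3%. All 10 interneuron markers summed to 237.05 CPM in the escalating library, against 240.04 CPM in the nonescalating library. Vip had 0 counts in the escalating library, against 1 in the nonescalating library. Of 6 cortical excitatory markers 4 were called higher and 1 lower with TMM. With total reads 4 were called higher and 0 lower, and with the pan-neuronal setting 3 and 1. The shares of all measured genes are those given for the interneuron markers. Summed levels of the cortical markers were 68.0 CPM in the escalating, against 40.9 CPM in the nonescalating library. Cnr1 is also expressed in cortex, and the part of these markers in the Cnr1 ratio was not tested.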

How the data were processed

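Per the labels' protocols, total RNA was purified from homogenised dorsal striatum with an Agilent kit; the title of each sample gave its group, with 1 library in each. Per the submitters' processing notes, the authors used STAR 2.0.0e for alignment to mm10 and HTSeq for counting. Strand setting, annotation and HTSeq version: not given in the sources used here. What the authors deposited is 1 raw count per gene symbol and library. Rows for reads given to no gene stayed out: 46.2% of the listed reads in the escalating, against 44.7% in the nonescalating library. Of these, reads outside any counted gene were 28.6% of the listed reads in the escalating, against 18.1% in the nonescalating library.

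Library sizes were scaled with TMM (edgeR 4.0.16, R 4.3.3). Log2 ratios used a pseudocount of 0.5, and folds none. Intervals of ratios, shares and CPM are exact (Clopper-Pearson, Poisson) at 95%, and those of pairs are conditional odds ratios, with 99.82% intervals as the joint ones. A count of 0 allows 3 counts. With 1 library per group no test between groups was run. DESeq2 1.42.0 gave size factors only. Lengths and positions came from GENCODE M21 (GRCm38, the same build as mm10), which gave a length for 92.5% of measured genes. Symbols with a length held 80.6% of assigned reads in the escalating, against 66.8% in the nonescalating library. TPM values of the libraries thus rest on unlike shares of the reads. The remaining steps used Python 3.11.15 with scipy 1.17.1, numpy 2.4.6, pandas 2.3.3 and, for plots, matplotlib 3.10.9. The call rule was also run on simulated counts that held counting error only. That simulation cannot test the calls made here against spread between libraries or the choice of scaling.

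The genes, lists and tests were chosen with earlier results of these data known. The text names all 8 members and up to 4 measured genes of each pathway list with the largest ratio. It also names the 3 genes closest to Cnr1 in level. Marker lists are given as sums and counts, and single markers are named only where a library had 0 counts, after their values were seen. Alternatives were 4 other scalings, a pseudocount of 5, a 2-fold threshold, 99% intervals, a minimum of 10 counts and another transcript length.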

Additional observations from a re-analysis of the deposited data

How the results depend on the processing

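No value here has a replicate check, and no paired analysis was possible because each group had 1 library. None of the 8 genes changed sign under the scalings or the pseudocount tried, though the intervals of Faah, Daglb and Napepld included equal levels under some scalings. The calls moved with the scaling. With total assigned reads, log2 ratios were -0.23 for Daglb, -0.33 for Mgll, -0.52 for Abhd6 and -0.29 for Abhd12, which were no longer called, and 0.80 for Napepld, newly called, so 0 members were lower and 1 higher, beside 1148 lower and 3853 higher of all measured genes (2085 and 1143 with TMM). Without the 10 genes with the most reads, Daglb (-0.49), Mgll (-0.58) and Abhd12 (-0.54) lost their calls and 1 member was lower, with 1725 of all genes higher. With the pan-neuronal median at 0, Cnr1 (-0.84), Dagla (-0.82) and Faah (-0.70) were called too, 7 members in all, with 3697 of all genes lower and 303 higher. A pseudocount of 5 took Daglb to -0.57, under the threshold. At 2-fold, 0 members were called, with 1085 of all genes lower and 249 higher. DESeq2 size factors, 99% intervals and a minimum of 10 counts moved no call of a member and no count by over 1.5 times. Without length, Mgll was 45.2% of hydrolase reads in the escalating, against 45.1% in the nonescalating library; per length these were 30.7% (escalating) and 30.5% (nonescalating). Depth limits Faah, Napepld and Daglb, at 70 to 141 counts a library.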
